A study of Mus musculus with 16 samples.

Results

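Open chromatin was described around 10 genes that encode the liver's alcohol and aldehyde oxidising enzymes. They are the alcohol dehydrogenases Adh1, Adh4, Adh5 and Adh7, the aldehyde dehydrogenases Aldh1a1, Aldh1a7, Aldh2 and Aldh3a2, and the aldehyde oxidases Aox1 and Aox3. A DNase hypersensitive site (DHS) belonged to the set when it overlapped the body of any of these genes or the 20 kb on either side of it. Peaks sharing 1 bp or more across the 4 lists were merged into 1 region, which gave 72 DHS regions of 51482 in the whole data set. Of the 72, 10 lay in the windows of 2 neighbouring genes at once.

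DNase-seq marks the places where the enzyme DNase I cuts accessible DNA in nuclei. Liver nuclei came from male and female mice of C57BL/6J (B6), the strain of the mouse reference genome, and of CAST/EiJ (CAST), a strain inbred from wild mice of a different subspecies. All mice were 8 weeks old per the sample labels, all digests used 32 units of DNase I, and the labels name no treatment or engineered allele in any group. The 16 libraries formed 4 groups of 4, B6 males, B6 females, CAST males and CAST females, and the libraries of a group were pooled by the authors into 1 peak list. With 1 list per group there is no replicate error, so no difference below was tested between animals, and intervals cover the counting of reads only.

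The value used throughout is fold enrichment, the reads piled up at a peak's summit over the local background, given by the authors for each peak. The lists held 38751 peaks in B6 males, 26271 in B6 females, 39562 in CAST males and 24888 in CAST females. Read depth sets the background that MACS2 assumes genome-wide, which was 15.4, 13.9, 14.3 and 7.94 reads in that order, so the list of CAST females was the shallowest. A DHS missing from a list may lie just under its threshold: 5% of the peaks had a fold enrichment under 2.06 in B6 males, 2.14 in B6 females, 2.1 in CAST males and 2.48 in CAST females. Among 6 hepatocyte markers the promoters of Alb, Ttr, Tat and Cyp7a1 were DHS in all 4 lists, that of Apoa1 in both male lists, and that of Serpina1a in none. None of 5 immune cell markers, 3 stellate and bile duct markers or 3 markers of other tissues had a promoter DHS in any list. Of 3 sinusoidal endothelial markers, Stab2 had a promoter DHS in all 4 lists (fold enrichment 3.59, 2.81, 8.13 and 5.45), Kdr in both B6 lists and Pecam1 in B6 males only. The part of non-hepatocyte nuclei in the results below was not tested.

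The enzymes work in sequence. Alcohol dehydrogenases are cytosolic zinc enzymes that oxidise ethanol, retinol and other alcohols to aldehydes with NAD as the acceptor, and aldehyde dehydrogenases oxidise the aldehydes to acids. Aldehyde oxidases are molybdenum- and flavin-containing enzymes that pass electrons to oxygen and also oxidise many drugs with nitrogen-containing rings. The liver is the main site of ethanol clearance, and hepatocytes hold most of these activities. Adh7, Adh1, Adh4 and Adh5 lie in a single cluster on chromosome 3, Aldh1a1 and its close copy Aldh1a7 side by side on chromosome 19, and Aox1 and Aox3 head to tail on chromosome 1.

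Sequences are shown for both regions that were higher in CAST of each sex, for examples of regions found in the lists of a single strain or sex, and for the strongest regions of the Adh7, Adh1 and Adh4 windows by mean percentile over the lists. Each runs from 75 bases before to 75 bases after the highest summit on the plus strand of mm9, the B6 reference allele; the CAST alleles were not analysed here. Capitals mark exact matches to any of 17 short transcription factor motifs searched on both strands, and a sequence without capitals holds none of them in that stretch.
Aox1 intronic region, higher in CAST (chr1:58128607-58128757): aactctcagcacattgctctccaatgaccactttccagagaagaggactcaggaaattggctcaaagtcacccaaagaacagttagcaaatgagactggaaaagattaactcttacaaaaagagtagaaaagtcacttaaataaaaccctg
Region upstream of Aldh1a7, higher in CAST (chr19:20819246-20819396): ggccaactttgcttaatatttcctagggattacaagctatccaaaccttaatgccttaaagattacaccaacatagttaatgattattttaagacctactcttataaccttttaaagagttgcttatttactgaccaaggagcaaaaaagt
Region upstream of Aldh1a1, B6 lists only, STAT5 letters TTCNNNGAA in capitals (chr19:20674615-20674765): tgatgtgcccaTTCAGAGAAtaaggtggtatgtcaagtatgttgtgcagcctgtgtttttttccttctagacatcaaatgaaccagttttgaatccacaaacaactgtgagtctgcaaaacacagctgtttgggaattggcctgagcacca
Region downstream of Adh1, B6 lists only (chr3:137969325-137969475): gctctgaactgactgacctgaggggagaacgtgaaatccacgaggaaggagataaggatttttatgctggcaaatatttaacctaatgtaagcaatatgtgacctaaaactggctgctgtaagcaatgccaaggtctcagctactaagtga
Region downstream of Adh1, CAST lists only (chr3:137955582-137955732): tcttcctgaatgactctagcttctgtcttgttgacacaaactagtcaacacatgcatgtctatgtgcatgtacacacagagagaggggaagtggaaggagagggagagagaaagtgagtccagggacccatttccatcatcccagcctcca
Region upstream of Adh1, male lists only, DR1 letters in capitals (chr3:137917256-137917406): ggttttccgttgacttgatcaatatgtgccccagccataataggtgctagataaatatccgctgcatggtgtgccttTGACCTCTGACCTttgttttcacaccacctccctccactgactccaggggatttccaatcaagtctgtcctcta
Strongest region between Adh7 and Adh1, AP-1 letters TGANTCA and NR5A2 letters TCAAGGTCA in capitals (chr3:137904476-137904626): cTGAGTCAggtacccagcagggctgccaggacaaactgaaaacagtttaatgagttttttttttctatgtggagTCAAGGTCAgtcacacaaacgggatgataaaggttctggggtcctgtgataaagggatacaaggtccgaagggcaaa
Strongest region upstream of Adh4 (chr3:138073395-138073545): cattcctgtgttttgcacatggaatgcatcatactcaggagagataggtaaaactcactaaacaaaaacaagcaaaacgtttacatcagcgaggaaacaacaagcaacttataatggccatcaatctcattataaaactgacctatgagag

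The regions were first counted by the lists that held them. Of the 72 regions, 27 (37.5%, exact binomial 95% interval 26.4 to 49.7%) were called in all 4 lists, against 35.6% of all regions. A further 26 regions (36.1%) were in a single list, against 35.2%. Both shares were therefore close to those of the genome. Of these, 11 were in B6 males, 13 in CAST males, 1 in B6 females and 1 in CAST females. Male lists thus held 24 of the 26 (92.3%, interval 74.9 to 99.1%), against 83.9% of all single-list regions. This share of the male lists was counted after the values were seen. In sum 56 regions were found in B6 males, 32 in B6 females, 56 in CAST males and 35 in CAST females.

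By sex, 8 of 72 regions were in both male lists but neither female list (11.1%, interval 4.92 to 20.7%), against 9.38% of all regions. No region was in both female lists but neither male list, a pattern that 0.0622% of all regions had. By strain, 3 of 72 regions were in both B6 lists but neither CAST list (4.17%, against 3.32%), and 1 was in both CAST lists but neither B6 list (1.39%, against 3.62%). Of the 7 regions in exactly 3 lists, 6 lacked B6 females, which was 8.33% of the 72 (interval 3.12 to 17.3%) against 4.73% of all regions. The remaining region lacked CAST females (1.39%, against 6.85%). None lacked B6 males or CAST males, against 0.305% and 0.2% of all regions. This split of the regions in 3 lists was counted after the values were seen.

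**Figure D1:**
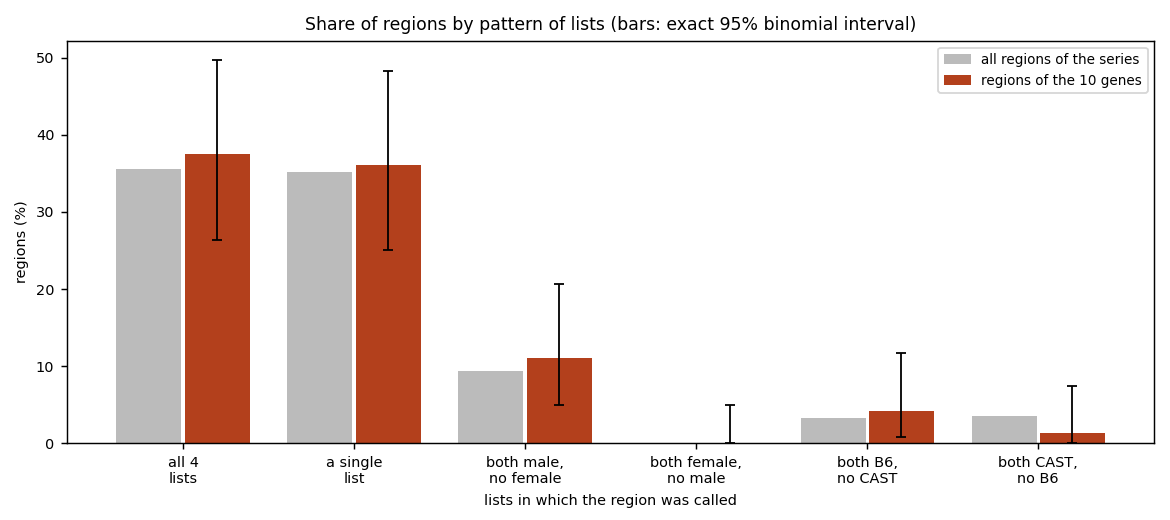
Share of DHS regions (%) by the lists that held them, for the 72 regions of the 10 genes (red, with exact 95% binomial intervals) and all 51482 regions (grey). For all 6 patterns the grey bar ends inside the red interval, and the largest gap was that of both CAST lists but neither B6 list (1.39% against 3.62%).

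A distance of more than 2.5 kb from any protein-coding start site was measured for 53 of the 72 regions (73.6%, interval 61.9 to 83.3%), against 68.6% of all regions. By their summits, 42 lay in introns (58.3%, against 44.3%), 25 between genes (34.7%, against 40.8%), 4 in untranslated exons (5.56%, against 8.66%), 1 in a noncoding exon (1.39%, against 1.78%) and 0 in coding exons (against 4.45%). The rule drew the windows around gene bodies, so these shares are a description only. Regions in all 4 lists had a median fold enrichment of 5.06, 3.65, 5.49 and 4.93 in B6 males, B6 females, CAST males and CAST females, beside 5.35, 3.88, 5.80 and 4.66 for all regions in all 4 lists. Their summits differed between the 4 lists by a median of 74 bp, and by 50 bp or less in 9 of 27. The widest spread was 1661 bp, at the broad Aldh2 promoter region. The spreads of all regions are not given here, so those of the members are a description only.

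**Figure D2:**
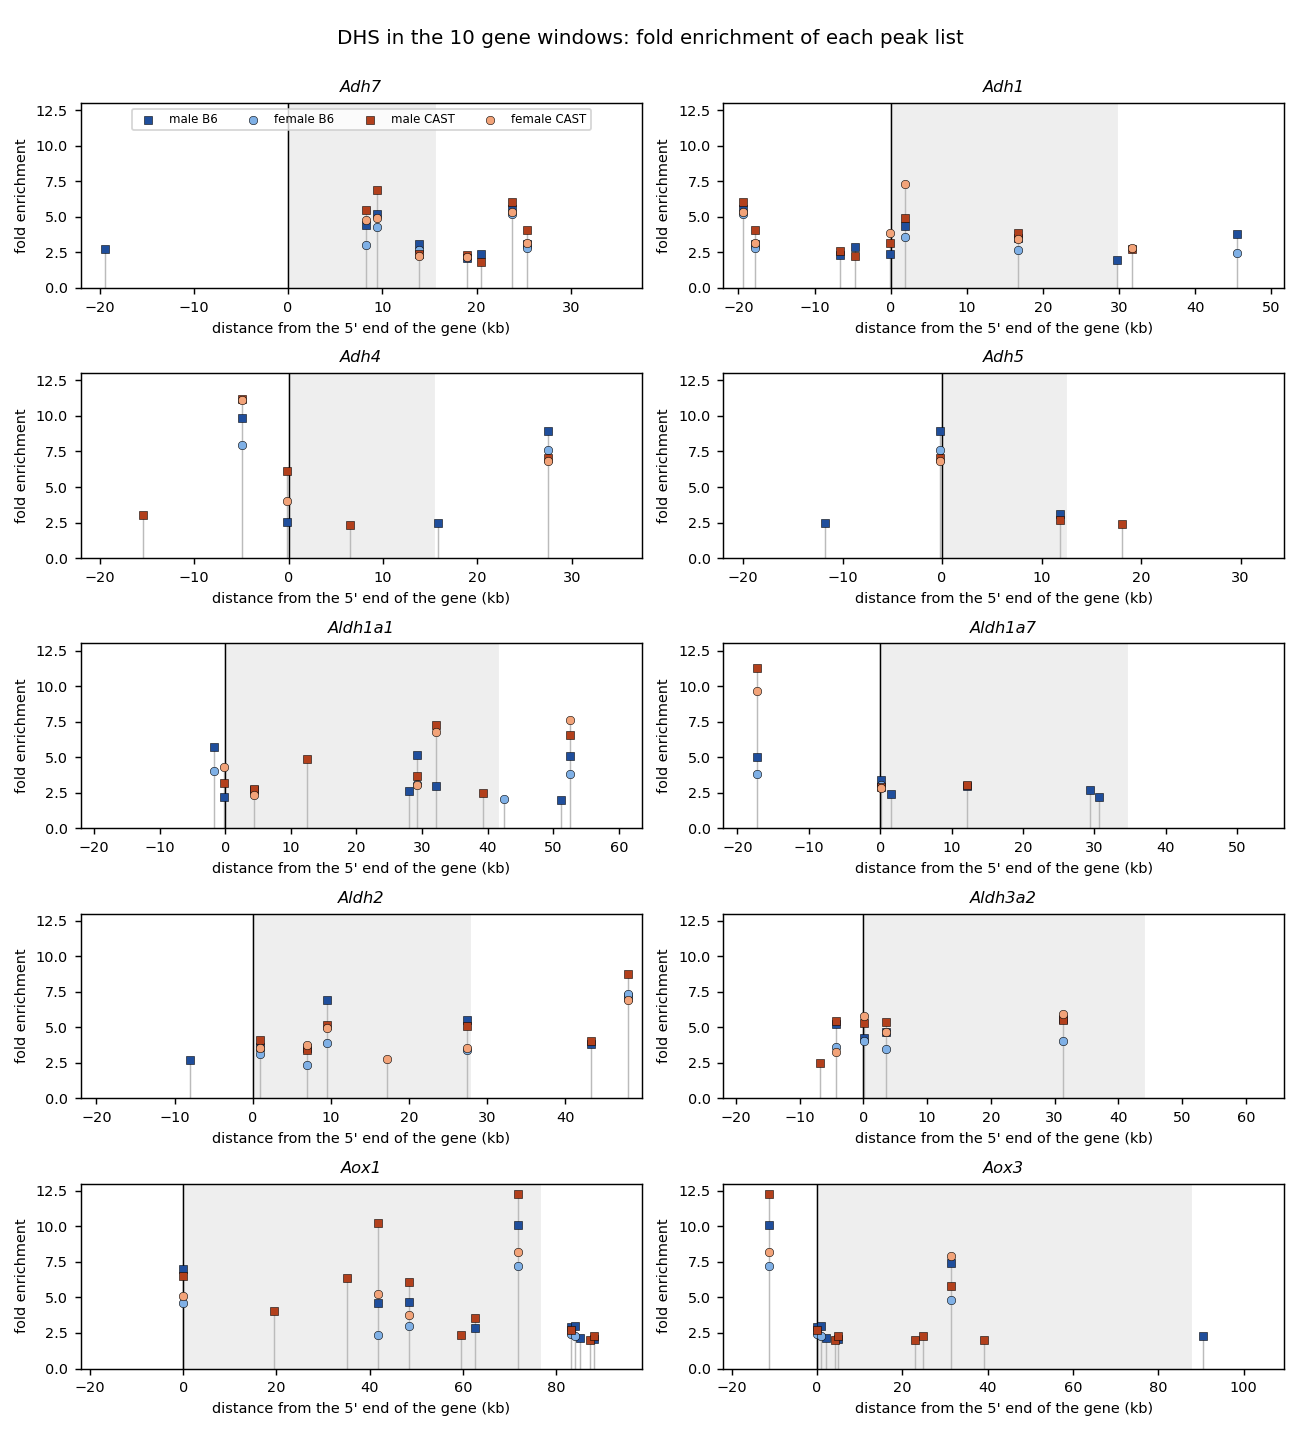
Fold enrichment (y axis) of every DHS region by the distance of its highest summit from the 5' end of the gene (x axis, kb, in the direction of transcription) for the 10 genes, with squares for male and circles for female lists, blue for B6 and red for CAST, and the gene body shaded. The highest points are the 12.3 of CAST males in the intron near the 3' end of Aox1, the 11.3 of CAST males upstream of Aldh1a7 and the 11.2 of both CAST lists upstream of Adh4.

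Adh1 encodes the main ethanol-oxidising enzyme of mouse liver, and its window held 10 regions, 9 in B6 males, 5 in B6 females, 8 in CAST males and 6 in CAST females. At the upstream start site of Adh1 (chr3:137923719-137924189) fold enrichment was 2.36 in B6 males, 3.18 in CAST males and 3.87 in CAST females, and B6 females had no peak. The 95% Poisson interval of the summit reads was 39.7 to 69.3 in B6 males and 42.3 to 72.7 in CAST females, on backgrounds of 21.9 and 13.7. Another region at an internal start site, 16.8 kb downstream (chr3:137939093-137940880), was in all 4 lists at 3.55, 2.66, 3.87 and 3.43. Both male lists were above both female lists before centring, but the centred male over female fold was 1.05 in B6 and 0.966 in CAST. The centred CAST over B6 fold was 1.03 in males and 1.09 in females.

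Centred fold means the ratio of the fold enrichments of 2 lists divided by the median ratio of shared regions of like strength, so that 1 is the genome's own ratio. Before centring, the median ratio over shared regions was 1.32 for male over female in B6, 1.19 for male over female in CAST, 1.06 for CAST over B6 in males and 1.19 in females. The highest region inside the Adh1 gene lay in an intron, 1.8 kb from the 5' end (chr3:137925422-137926875). It measured 4.33 in B6 males, 3.60 in B6 females, 4.90 in CAST males and 7.31 in CAST females. The list of CAST females was the highest of the 4, and the centred log2 ratio of male over female was -0.88 in CAST (counting error 0.41) and -0.19 in B6 (counting error 0.48).

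Around Adh1 the lists of a strain or sex parted at several weaker regions. Downstream of the gene, inside an intron of the noncoding gene Gm16559, a region of 24 to 42 summit reads was in both CAST lists only (chr3:137955427-137956671, fold enrichment 2.72 in males and 2.80 in females). Further downstream, in the same noncoding gene, a region was in both B6 lists only (chr3:137969141-137969691, 3.79 in males and 2.47 in females). Their sequences are printed above. Upstream, 2 regions were in both male lists but neither female list, at 6.6 kb (2.32 in B6 and 2.61 in CAST) and 4.7 kb (2.87 in B6 and 2.22 in CAST). The first holds the DR1 letters, a direct repeat that nuclear receptors such as HNF4A and PPARA with RXR bind, in the capitals above. These 4 regions stood at percentiles 8.23 to 55.3 of the lists that held them.

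Adh7 encodes an enzyme for retinol that is best known from stomach and other epithelia. It was the only member with no DHS within 1 kb of its start site in any list. Its gene body nevertheless held 3 regions found in all 4 lists. The strongest, 9.4 kb from the 5' end (chr3:137889708-137890601), measured 5.17 in B6 males, 4.30 in B6 females, 6.90 in CAST males and 4.90 in CAST females. Its neighbour 8.3 kb from the 5' end measured 4.42, 3.05, 5.49 and 4.77 in the same order. Before centring the lowest list in both regions was that of B6 females and the highest that of CAST males, but their centred folds ran from 0.880 to 1.31 over the 4 comparisons. The value of B6 males at the strongest region is doubtful, since its deposited −log10 q was 5.45, against 48.2 in B6 females, 219.7 in CAST males and 44.4 in CAST females, and its summit reads could not be recovered.

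The strongest region of both the Adh7 and the Adh1 windows lay between the genes, 23.8 kb downstream of the Adh7 start and 19.4 kb upstream of the Adh1 start (chr3:137904174-137904863). Fold enrichment was 5.58 in B6 males, 5.20 in B6 females, 6.02 in CAST males and 5.37 in CAST females. The lists lay close together before centring, and the centred CAST over B6 fold was 1.01 in males and 0.861 in females. The centred male over female fold was 0.770 in B6 (log2 -0.38, counting error 0.26) and 0.897 in CAST (log2 -0.16, counting error 0.31). Its printed sequence holds the letters of AP-1, a dimer of Jun and Fos proteins, and of NR5A2, a nuclear receptor that controls bile acid genes.

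Adh4 oxidises retinol and longer alcohols in liver. Its strongest region was 5.0 kb upstream of the start site (chr3:138072049-138073758), at 9.86 in B6 males, 7.94 in B6 females, 11.2 in CAST males and 11.2 in CAST females. These values stood at percentiles 95, 95.5, 96.4 and 97.7 of their lists, and the centred CAST over B6 fold was 1.09 in males and 1.19 in females. The promoter of Adh4 differed more (chr3:138078022-138078580). It measured 2.51 in B6 males, 6.13 in CAST males and 4.04 in CAST females, and B6 females had no peak. Summit reads were 73 (57.2 to 91.8) in B6 males and 240 (211 to 272) in CAST males, and the centred fold of CAST over B6 in males was 2.30. It is also the region with the lowest share of unique sequence, 92.2% of its 50-base stretches.

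Adh5 encodes the enzyme that clears formaldehyde bound to glutathione and is active in nearly all tissues. Its promoter (chr3:138105477-138106728) was its strongest region and the highest promoter of the set, at 8.94 in B6 males, 7.62 in B6 females, 7.01 in CAST males and 6.82 in CAST females. Both B6 lists were above both CAST lists before centring, and the centred fold of CAST over B6 was 0.749 in males and 0.748 in females, which did not reach 1.5-fold. Its log2 counting errors were 0.25 in males and 0.36 in females, around a centred log2 ratio of -0.42 in both. The other Adh5 regions were 1 in both male lists only (3.07 in B6 and 2.71 in CAST, near the 3' end of the gene) and 2 in a single list.

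Among the aldehyde dehydrogenases, the pair on chromosome 19 held the regions with the largest centred folds between the strains. Aldh1a1 encodes the cytosolic enzyme that makes retinoic acid from retinal, and its window held 11 regions, 8 in B6 males, 4 in B6 females, 7 in CAST males and 5 in CAST females. At its promoter (chr19:20676022-20676708) fold enrichment was 2.17 in B6 males, 3.16 in CAST males and 4.29 in CAST females, and B6 females had no peak. A region 1.8 kb upstream of the start site (chr19:20674489-20674984) was in both B6 lists and neither CAST list. It measured 5.70 in B6 males, from 153 summit reads (130 to 179), and 4.03 in B6 females, from 71 reads (55.5 to 89.6). Its B6 values stood at percentiles 77.7 and 66.7 of their lists, above those of the other 3 regions found in both lists of a single strain. Its sequence is printed above with the STAT5 letters in capitals. STAT5 carries the growth hormone signal in hepatocytes, and 9 of 72 member regions (12.5%) held these letters within 150 bases of the summit, beside 10.2% of all regions. Of its 50-base stretches 93.7% were unique in the reference.

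Inside the Aldh1a1 gene, a region 32.1 kb from the 5' end (chr19:20708151-20708929) measured 2.97 in B6 males, 7.27 in CAST males and 6.77 in CAST females, with no peak in B6 females. The centred fold of CAST over B6 in males was 2.30, with summit reads of 114 (94.0 to 137) and 270 (239 to 304). It was named after its values were seen, since it fell outside the rule for regions in all 4 lists. The strongest region of the window lay downstream of the gene, 52.5 kb from its 5' end (chr19:20728451-20729257). It measured 5.06 in B6 males, 3.84 in B6 females, 6.56 in CAST males and 7.61 in CAST females. The centred fold of CAST over B6 there was 1.22 in males and 1.66 in females, so the 1.5-fold line was passed in females only.

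Aldh1a7 is a close relative of Aldh1a1 found in rodents. Its promoter (chr19:20801584-20802430) was weak and alike in the lists, at 3.39 in B6 males, 3.01 in B6 females, 2.91 in CAST males and 2.86 in CAST females. A region 17.3 kb upstream of it (chr19:20818914-20819818) was the strongest of the window and differed by strain in both sexes. It measured 5.01 in B6 males, 3.82 in B6 females, 11.3 in CAST males and 9.63 in CAST females. Both CAST lists were above both B6 lists, and the centred fold was 2.11 in males (log2 1.08, counting error 0.35) and 2.07 in females (log2 1.05, counting error 0.45). In males the summit held 81 reads (64.3 to 100.7) in B6 and 306 (273 to 342) in CAST. Between the sexes it hardly differed, with a centred male over female fold of 0.952 in B6 and 0.976 in CAST. All of its 50-base stretches were unique, and those of the promoters of Aldh1a7 and Aldh1a1 were unique in 98.0% and 97.5%.

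Aldh2 encodes the mitochondrial enzyme that oxidises most acetaldehyde from ethanol. Its window held 8 regions, 5 of them in all 4 lists. The broad region that reaches over its start site (chr5:122041579-122044057) measured 3.61 in B6 males, 3.15 in B6 females, 4.10 in CAST males and 3.58 in CAST females. No centred fold of this region passed 1.5 in any comparison, and they ran from 0.865 to 1.07. The strongest region of the window was the promoter of the neighbouring kinase gene Mapkapk5 (chr5:121995355-121996307), at 7.10, 7.34, 8.76 and 6.91 in the order above. It overlaps the edge of the window and its start site is not that of Aldh2. A region between the genes was in both male lists but neither female list (chr5:122000481-122000792, 3.81 in B6 and 4.05 in CAST). It was the strongest of the 8 male-only regions, with 104 and 107 summit reads.

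Aldh3a2 encodes the fatty aldehyde dehydrogenase of the endoplasmic reticulum. Of its 5 regions 4 were in all 4 lists, the highest share among the genes. Its promoter (chr11:61080258-61081016) measured 4.26 in B6 males, 4.04 in B6 females, 5.33 in CAST males and 5.82 in CAST females. Both CAST lists were above both B6 lists, but the centred CAST over B6 fold was 1.18 in males and 1.19 in females. The centred male over female fold was 0.765 in B6 (log2 -0.39, counting error 0.32) and 0.732 in CAST (log2 -0.45, counting error 0.32), short of 1.5-fold. Before centring these ratios were 1.05 and 0.915. An intronic region 31.3 kb from the 5' end was the strongest, at 5.58, 4.02, 5.52 and 5.95.

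The aldehyde oxidases held the region with the highest single fold enrichment of the set. Aox1, the oxidase that humans also carry, had 13 regions in its window and Aox3, a rodent liver oxidase, had 11, with 6 regions shared by both windows. That region lay in an intron near the 3' end of Aox1, 11.3 kb upstream of the Aox3 start site (chr1:58158132-58158856). It measured 10.1 in B6 males, 7.21 in B6 females, 12.3 in CAST males and 8.20 in CAST females, at percentiles 95.5, 93.4, 97.7 and 91.1 of the lists. Males were above females in both strains before centring, and the centred fold was 1.02 in B6 and 1.24 in CAST. The Aox1 promoter (chr1:58086342-58088497) was next to that of Adh5 in B6 males, at 6.99, 4.58, 6.53 and 5.09, with centred folds between 0.880 and 1.09 in all 4 comparisons.

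The other region higher in CAST of both sexes lay in an intron of Aox1, 41.9 kb from its 5' end (chr1:58128022-58129135). It measured 4.60 in B6 males, 2.38 in B6 females, 10.2 in CAST males and 5.25 in CAST females. The centred fold of CAST over B6 was 2.09 in males (log2 1.07, counting error 0.29) and 1.87 in females (log2 0.90, counting error 0.59). It was also the member nearest to a sex difference in both strains, with a centred male over female fold of 1.45 in B6 and 1.57 in CAST. In CAST males its summit held 498 reads on a background of 47.9, and in B6 females 38 reads on 15.4.

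Elsewhere in Aox1, 3 intronic regions were found in CAST males and in no other list. The strongest, 35.2 kb from the 5' end, had a fold enrichment of 6.34 from 159 reads (135 to 186). Of the 7844 regions of the data set found in CAST males alone, 0.395% were as high. The next lay at 19.4 kb with 4.05, and 4.73% of those regions were as high, and the weakest measured 2.33. In Aldh1a1, 12.5 kb from its 5' end, another region of CAST males alone measured 4.86, a level that 1.95% reached. These regions were named after their values were seen, for their height, so the shares are descriptions only.

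At the start site of Aox3 the signal was weak. The region over the start site (chr1:58169693-58170324) measured 2.94 in B6 males, 2.45 in B6 females and 2.74 in CAST males, and CAST females had no peak. The next region, in an intron (chr1:58170749-58171141), was in both B6 lists only, at 2.99 and 2.32. Deeper in the gene, 31.5 kb from the 5' end (chr1:58201060-58201832), a strong region measured 7.44 in B6 males, 4.82 in B6 females, 5.81 in CAST males and 7.93 in CAST females. B6 males and CAST females were the higher pair.

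The regions in all 4 lists were then compared for size. A region counted when its centred fold was at least 1.5 in the same direction in both sexes or both strains. By strain, 2 of 27 regions were higher in CAST of both sexes (7.41%, interval 0.910 to 24.3%), the Aox1 intron and the region upstream of Aldh1a7, against 2.09% of all 18309 such regions. None of 27 was higher in B6 of both sexes, against 0.890%. By sex, 0 of 27 were higher in males of both strains, against 0.273%, and 0 of 27 were higher in females of both strains, against 0.0218%. With 27 regions, shares this low leave less than 1 region in each pattern, so counts of 0 do not set the members apart. At a fold of 2 only the region upstream of Aldh1a7 remained (1 of 27, 3.70%, against 0.344% of all such regions). Among strong peaks neither remained (0 of 13, against 0.798%), since the female B6 peak of both is below the stricter threshold.

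**Figure D3:**
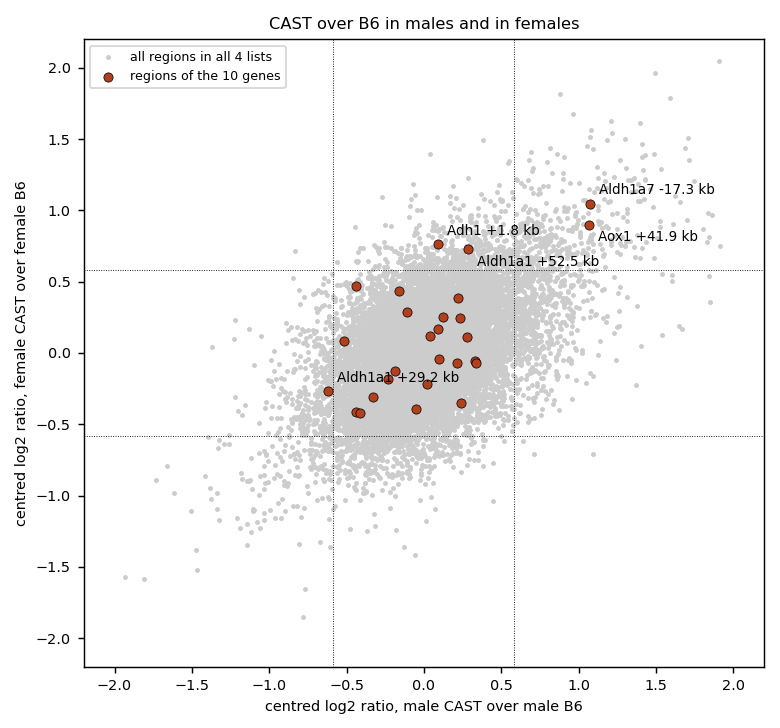
Centred log2 ratio of CAST over B6 in males (x axis) and females (y axis) for regions in all 4 lists, with 27 member regions in red, all 18309 in grey and dotted lines at 1.5-fold. The regions 17.3 kb upstream of Aldh1a7 (1.08 and 1.05) and 41.9 kb into Aox1 (1.07 and 0.90) are the red points beyond the lines in both sexes, and 2 grey points lie outside the axes.

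Within a single sex or strain a few more regions passed the line. These single ratios were counted after the values were seen. In females 4 of 27 passed upwards for CAST over B6 and 0 downwards, against 4.92% and 3.47% of all regions in all 4 lists. In males 2 passed upwards and 1 downwards, against 5.36% and 2.84%. The downward region was in an Aldh1a1 intron 29.2 kb from the 5' end, at 5.15 in B6 males and 3.65 in CAST males. Between the sexes no member passed in B6 in either direction, against 1.9% of all such regions towards males and 0.972% towards females. In CAST 1 passed towards males, the Aox1 intron, and 2 towards females, the Adh1 intron at 1.8 kb and the Aox3 region at 31.5 kb, against 2.5% and 1.14%. The median centred log2 ratio over the 27 was -0.03 and -0.05 for male over female in B6 and CAST, and 0.09 and 0.08 for CAST over B6 in males and females, beside about 0 for all regions by construction.

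**Figure D4:**
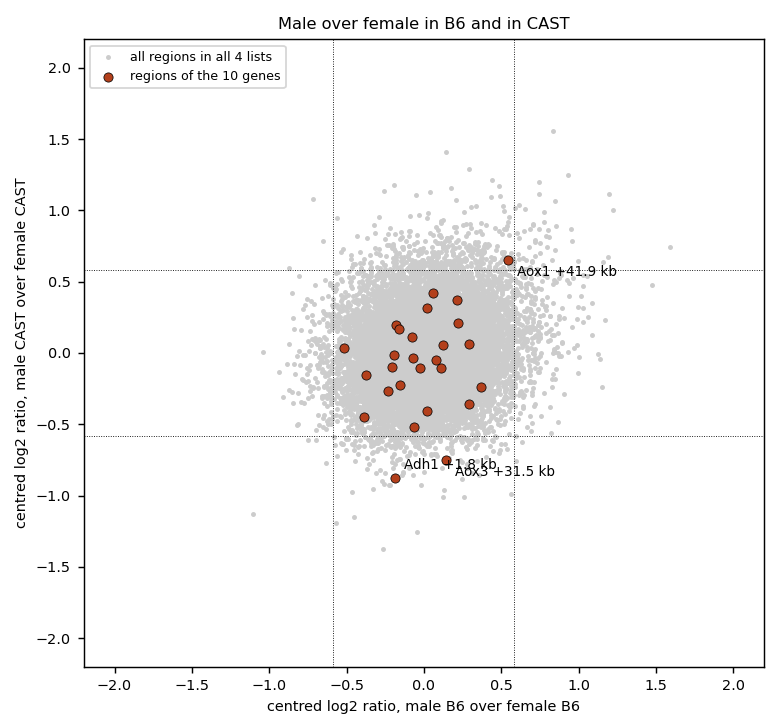
Centred log2 ratio of male over female in B6 (x axis) and CAST (y axis) for regions in all 4 lists, with the 27 member regions in red, all 18309 in grey and dotted lines at 1.5-fold. No red point is beyond the lines in both strains: the Aox1 intron is nearest (0.54 and 0.65), and Adh1 (-0.88) and Aox3 (-0.75) pass in CAST alone.

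The 8 regions in both male lists but neither female list stood at percentiles 0.607 to 55.9 of those lists by fold enrichment. Besides those of Adh1, Adh5 and Aldh2 above, they lay in Aox1 (62.7 kb from the 5' end, 2.88 in B6 and 3.55 in CAST), in Aox3 (5.0 kb, 2.1 and 2.27), in Aldh1a7 (12.1 kb, 3.0 and 3.02) and downstream of Adh7 (20.5 kb, 2.39 and 1.84). Adh4, Aldh1a1 and Aldh3a2 had none. When the 4 lists were cut to equal size by fold enrichment, 1 of 46 regions had this pattern, against 2.67% of all regions. At the stricter threshold 8 of 39 regions had it (20.5%, against 20.2%), but 1 of these, the region between Aldh2 and Mapkapk5, was among the 8 above. With lists scaled to equal depth 8 of 66 had it (12.1%, against 9.13%).

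Other genes of alcohol, aldehyde and retinoid metabolism were read at their promoters. Of 43 such genes 30 (and 6 of the 10 members) had a DHS within 1 kb of a start site in all 4 lists, against 42.4% of 22238 protein-coding genes. Adh1 counts among the 6 through its internal start site, since B6 females had no peak at the upstream one. No promoter DHS was found for 8 of the 43 and for 1 member, against 45.7%. The presence differed between lists for 5 of the 43 and 3 members, against 11.9%. These 5 were Rdh16, a retinol dehydrogenase, in both male lists only (5.69 in B6 and 3.80 in CAST), Aldh1b1, a mitochondrial relative of Aldh2, in both CAST lists only (2.62 in males and 2.98 in females), and 3 others. Aldh5a1 lacked B6 females, Aldh18a1 lacked CAST females, and Acss1 was found in B6 females alone. Enzymes next to the members on their chromosomes were among those without any, namely Adh6a, Adh6b, Aldh3a1 and Aox4. By contrast the molybdenum cofactor genes Mocos, Mocs1, Mocs2 and Gphn, whose product the oxidases need, had a promoter DHS in all 4 lists, Mocos at 11.8, 8.56, 12.4 and 12.3.

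The motif letters were counted in the member regions and in all regions. Within 150 bases of the summit AP-1 letters were in 11 of 72 regions (15.3%, beside 9.42% of all regions), NRF2 letters (TGACNNNGC) in 9 (12.5%, beside 13.9%), FOXA letters (TGTTTAC) in 3 (4.17%, beside 6.62%) and E-box letters (CACGTG) in 4 (5.56%, beside 7.13%). DR1 letters were in 2 (2.78%, beside 0.287%), the male-only region upstream of Adh1 and an Aldh2 intron. HNF4A letters (CAAAGTCCA) were in 0 of 72, beside 1.68%. These are exact letters in a fixed window and say nothing of binding.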

How the data were processed

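DNase-seq was done on 16 liver libraries, 4 per sex and strain. The authors kept uniquely mapped reads (Bowtie2; mm9 for B6 and a CAST-variant mm9 with coordinates converted back for CAST), pooled the libraries of a group and called peaks with MACS2, as the paper's methods state. Peak names in each deposited list carry the name of a single library. The deposited lists give per peak a score, a fold enrichment ratio, the −log10 p-value and −log10 q-value, and the summit offset. These values belong to pooled lists, so replicates could not be compared. The score is not used.

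Groups follow the library titles. Members and gene lists were chosen with earlier results of these data known. Coordinates are mm9, counted from 1, with GENCODE genes of the same build, and no region ended past a chromosome of that genome. Joined regions, patterns and ratios centred within 20 bins of equal number were computed in Python 3.11.15 with numpy 2.4.6, pandas 2.3.3 and scipy 1.17.1, and were checked on simulated lists. Summit reads and background were recovered from fold enrichment and p-value, assuming that MACS2 adds 1 to both, for at least 99.9% of peaks of each list to within 0.01 of the deposited −log10 p-value. Poisson and exact binomial intervals are 95% and cover counting error only. Named regions were each gene's promoter region (the highest within 1 kb of a start site), its strongest region by mean percentile, the regions of a single sex or strain in both lists, and regions past 1.5-fold in both. Other regions described above fell outside this rule, and their values are descriptions only. Alternatives were an overlap of 50%, joining within 500 bp, a stricter threshold (−log10 q of 15.7), lists of 24888 peaks, windows of 10 and 50 kb, other centrings, folds and measures, and, added after seeing the data, lists scaled to equal depth, the lists without CAST females and ratios without centring.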

Additional observations from a re-analysis of the deposited data

Results flagged for a closer look

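For 4 regions found in all 4 lists the ratio of sexes or of strains pointed in opposite directions in the groups compared, with a gap of at least 1.5-fold. With 1 pooled list per group the difference was not tested. At the Aox3 region 31.5 kb from the 5' end, the centred log2 ratio of male over female was 0.14 in B6 and -0.75 in CAST (gap 0.89), and that of CAST over B6 was -0.44 in males and 0.47 in females (gap -0.91). At the Aldh2 region 9.5 kb from the 5' end, male over female was 0.37 in B6 and -0.24 in CAST (gap 0.61), and CAST over B6 was -0.52 in males and 0.08 in females (gap -0.60). At the Aldh2 region 6.9 kb from the 5' end, male over female was 0.29 and -0.36 (gap 0.65), and CAST over B6 was -0.16 and 0.43 (gap -0.60). At the Mapkapk5 promoter in the Aldh2 window, CAST over B6 was 0.24 in males and -0.35 in females (gap 0.585). Each single ratio carries a counting error of 0.26 to 0.53, and a gap between ratios carries a larger one. The gap at the Mapkapk5 promoter lies at the limit of 1.5-fold. No share of all regions with such a gap is given here, so the count of 4 does not set the members apart.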

How the results depend on the processing

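Each list is pooled, so no replicate could be left out. No paired analysis was possible because the numbered libraries of each group were pooled into 1 list. Of 109 recounts of the patterns and fold counts under other settings, 84 stayed within 1.5 times the reported count and 25 did not. The 84 include counts of 0 that stayed at 0, some of which could not change, as at a fold of 2. The stricter threshold left 39 regions, 13 of them in all 4 lists, 9 in a single list and 1 in both B6 lists only (33.3, 23.1 and 2.56%, against 34.1, 27.8 and 1.44% of all regions). Of the 13, 0 were higher in CAST of both sexes, against 0.798% of all such regions. Lists of equal size by fold enrichment left 46 regions, with 10 in a single list, 1 in both male lists only and 3 in both CAST lists only (21.7, 2.17 and 6.52%, against 27.2, 2.67 and 5.45%). Lists of equal size by −log10 q left 47 regions, with 9, 1 and 3 in the same order (19.1, 2.13 and 6.38%, against 25.7, 2.29 and 5.72%). An overlap of 50% gave 0 of 80 regions in both CAST lists only (against 2.97% of all regions) and 1 of 25 higher in CAST (4%, against 1.99%). The window of 10 kb gave 1 of 24 higher in CAST (4.17%, against 2.09%), and the fold of 2 gave 1 of 27 (3.70%, against 0.344%). With −log10 q in place of fold enrichment, 2 regions were higher in males, 1 in females, 3 in B6 and 5 in CAST (7.41, 3.70, 11.1 and 18.5% of the 27, against 3.80, 3.39, 7.91 and 10.8% of all such regions). With a percentile difference of 10 points, 8 were higher in males and 3 in B6 (29.6 and 11.1%, against 27.9 and 8.51% of all such regions). Without the list of CAST females, 14 of 71 regions were in both male lists and not in B6 females, and 14 were in CAST males and neither B6 list (19.7% each, against 14.5 and 19.3% of all regions). For these the cause was not tested beyond what the settings' own construction changes. Lists scaled to equal depth and the window of 50 kb left every count within 1.5 times. Of 70 log2 ratios of named regions, none moved beyond its counting error with 1 median for centring or with the mean of several peaks, and 14 did with no centring. Motif shares within 50 bases of the summit, in place of 150, left the interval of the reported share for 8 of 17 motifs. The narrower window holds less sequence, and the shares over all regions fell as well. AP-1 letters went from 15.3 to 4.17% of the member regions and from 9.42 to 3.09% of all regions.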
